A study of Mus musculus with 6 samples.

Results

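The genes described here are 10 neighbours on mouse chromosome 10, spanning chr10:93247414-93897093 of the mm10 (GRCm38) assembly. They are Elk3, Mir7688, Lta4h, Hal, Amdhd1, Ccdc38, Snrpf, Ntn4, Usp44 and Metap2, in the order of their positions. The neighbourhood was chosen by the measured changes of Hal and Ntn4, which lie near each other and differed in opposite directions between the groups of this same experiment, so the comparison below describes these genes and gives no p-value for them. They are 10 of the 54232 genes of the count table and 10 of the 30 that are annotated in a window of 0.9 Mb around Hal and Ntn4. All 10 had a count in at least 1 library, and 7 of them were among the 17474 genes that received an adjusted p-value. The question was whether genes that changed in opposite directions here have neighbours that changed with them.

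Transcripts were measured by RNA-seq in primary stromal cells from the uterus on day 4 of pseudopregnancy, with 3 libraries from WT mice and 3 from Pbrm1 cKO mice. Pbrm1 encodes PBRM1, a subunit of the PBAF form of the SWI/SNF chromatin remodeler. The study's methods give Pbrm1 fl/fl mice as the source of the control cells, although the labels name the controls WT. Littermate controls are named in the study for its matings. By its text, the Pbrm1 cKO animals carry floxed Pbrm1 alleles together with a Cre driven from the progesterone receptor gene (Pbrm1 fl/fl with PR IRES-cre/+). That Cre is made in cells that use the progesterone receptor, which in the uterus are not stromal cells alone. The mice were 8 to 12 weeks old, each preparation pooled 5 to 10 uterine horns, and the cells were plated for 4 h and then kept for 2 h in fresh medium before RNA was taken. The labels do not say which horns came from the same animal, or that each library is a separate preparation. A figure legend of the study calls the 3 replicates biological. Over genes, the median chi-square between 2 WT libraries was 4.40 to 9.73 times that of sampling noise. Between 2 Pbrm1 cKO libraries it was 1.57 to 2.80 times, so the WT libraries differed more among themselves.

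The libraries held between 13253575 and 18338667 counted reads. Where a gene had no read, a level of up to 3 counts remains possible, or 0.164 to 0.226 CPM by library, for counting error alone. Values below are counts normalized by DESeq2 size factors, as mean ± SD (n = 3 in each group), and a log2 fold change above 0 means a higher level in Pbrm1 cKO than in WT. Pbrm1 itself stood at 1354, 1385 and 1677 normalized counts in WT against 397, 459 and 451 in Pbrm1 cKO, 29.6% of the WT mean, in counts that include exons outside the deleted part. All 14 stromal marker genes examined, among them Vim, Pdgfra, Hand2 and Pgr, had counts in these cells.

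Hal encodes histidine ammonia-lyase, which removes ammonia from histidine to make urocanate, the first step of histidine breakdown, and is known mainly from liver and skin. Ntn4 encodes netrin-4, a secreted protein related to the laminins that binds laminin chains and sits in basement membranes, the thin matrix sheets beneath epithelium and around vessels. Neighbouring genes can be switched together when they share regulatory DNA or lie in 1 contact domain of the chromosome, whose borders limit which promoters an enhancer reaches. RNA counts measure the transcripts of each gene and do not measure contacts, accessibility or domain borders.

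The stretches of 250 bases just before the start sites of Hal and Ntn4 are shown because the pair moved in opposite directions. They are taken from RefSeq (GRCm38.p6), read 5′ to 3′ along the plus strand, on which both genes lie. The Hal stretch is chr10:93488518-93488767 and the Ntn4 stretch is chr10:93640799-93641048. Capitals mark TATAAA, the letters of a TATA box, in Hal, and GGGCGG, the letters of a GC box, in Ntn4, each searched on both strands.
Hal promoter: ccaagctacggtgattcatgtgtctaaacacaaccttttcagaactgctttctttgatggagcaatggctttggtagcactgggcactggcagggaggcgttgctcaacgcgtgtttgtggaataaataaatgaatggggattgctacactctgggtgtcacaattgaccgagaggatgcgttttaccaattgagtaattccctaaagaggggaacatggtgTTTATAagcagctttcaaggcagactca
Ntn4 promoter: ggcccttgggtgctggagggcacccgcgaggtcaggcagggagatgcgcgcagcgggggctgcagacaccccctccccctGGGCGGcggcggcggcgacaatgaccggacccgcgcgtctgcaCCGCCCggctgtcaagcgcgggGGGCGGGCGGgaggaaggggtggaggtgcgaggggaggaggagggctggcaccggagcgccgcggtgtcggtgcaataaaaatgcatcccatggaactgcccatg
The Hal stretch was 45.6% G and C with 6 CpG dinucleotides. Its TATAAA stood on the minus strand (TTTATA as printed), with its first printed base 28 bases before the start site. The Ntn4 stretch was 73.2% G and C with 26 CpG dinucleotides, and it held GGGCGG at 4 places, of which 1 was on the minus strand (CCGCCC) and a pair overlapped. Across 32841 RefSeq mouse promoters of the same length, the median was 52.4% G and C with 6 CpG dinucleotides, so that Hal stood at percentile 25.7 and Ntn4 at percentile 94.3 for base composition. TATAAA was present in 12.4% of those promoters and GGGCGG in 32.7%, so neither is rare, and a match is a run of letters and not a shown binding site. Neither stretch held CCGGAAG, the core bound by ETS factors such as ELK3, which 6.91% of promoters held, or CACGTG, an E-box, which 6.02% held. Of the 10 genes, 8 had a RefSeq promoter entry. That of Elk3, which was not called, was also rich in G and C (67.2%, percentile 86.5) and held GGGCGG at 1 place. That of Amdhd1, a gene near 0 reads, held GGGCGG at 3 places. Whether base composition has a part in any change was not tested. The RefSeq start of Ntn4 lies inside the gene span of the count table, which begins upstream at a start of another transcript, and the printed stretch overlapped no annotated exon.

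Hal was the 1 gene of the 10 called higher in Pbrm1 cKO. Hal (ENSMUSG00000020017, chr10:93488768-93519304, plus strand) stood at 9.62, 7.77 and 17.3 normalized counts in WT replicates 1 to 3 and at 1108, 1068 and 1030 in Pbrm1 cKO replicates 1 to 3. In raw reads these were 9, 7 and 16 against 1123, 1337 and 1098. The groups lay far apart, with the lowest Pbrm1 cKO library well above the highest WT library, WT replicate 3. The mean went from 11.6 ± 5.05 to 1069 ± 38.8, a 92.4-fold difference and a log2 fold change of 6.53 (SE 0.28). Of the 2774 genes called higher across the genome (15.9% of those tested, at an adjusted p under 0.05), only 10 had a larger log2 fold change. Among those with a mean of at least 50 normalized counts, 2 of 2364 did. The 3 Pbrm1 cKO libraries varied by a coefficient of variation of 3.63%, close to the 2.90% that counting alone gives at that depth.

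Ntn4 was lower in Pbrm1 cKO. Ntn4 (chr10:93640681-93747207, plus strand) stood at 2439, 2667 and 2527 normalized counts in WT, and in Pbrm1 cKO at 401, 384 and 341. No Pbrm1 cKO library reached the WT range. The mean went from 2544 ± 115 to 375 ± 30.9, which is 14.7% of the WT mean, with a log2 fold change of -2.76 (SE 0.11). Among the 2658 genes called lower (15.2% of those tested), 162 had a larger fall, and among those with a mean of at least 50 normalized counts 43 of 2129 did. Unlike Hal, which was almost unused in WT, Ntn4 kept at least 341 normalized counts in each Pbrm1 cKO library.

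**Figure D1:**
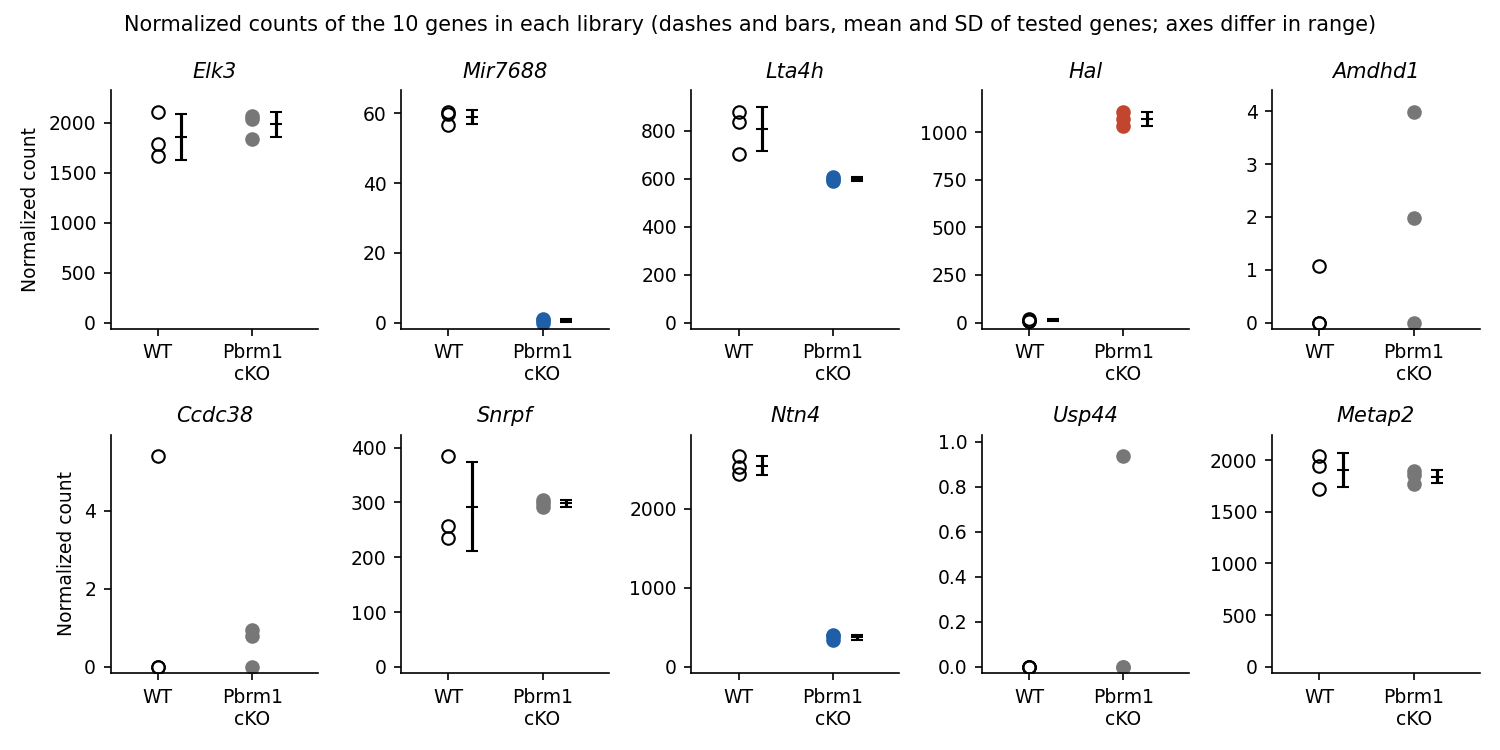
Normalized counts (y axis, linear, different range in each panel) of the 10 genes in the 3 WT libraries (open circles) and the 3 Pbrm1 cKO libraries (filled circles), with dashes and bars for the mean and SD of the 7 tested genes; red and blue mark genes called higher and lower. Hal sits at 7.77 to 17.3 in WT and at 1030 to 1108 in Pbrm1 cKO, Ntn4 and Mir7688 show the opposite arrangement, and the circles of Elk3, Snrpf and Metap2 overlap between groups.

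Mir7688 is a microRNA gene of 56 bases upstream of Hal (chr10:93433107-93433162, plus strand). Its hairpin and both mature arms are shown from RefSeq because this locus lost nearly all of its reads in Pbrm1 cKO. Capitals mark the seed, bases 2 to 8, with which a microRNA pairs to its targets.
Mir7688 hairpin: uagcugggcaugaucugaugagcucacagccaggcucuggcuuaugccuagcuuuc
mmu-miR-7688-5p: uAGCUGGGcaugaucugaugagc
mmu-miR-7688-3p: uCUGGCUUaugccuagcuuuc
The 5p seed occurred in no other of the 1738 mature mouse microRNAs of the RefSeq table, and the 3p seed was shared with mmu-miR-7652-3p. The locus took 53, 54 and 56 reads in WT, and 1, 1 and 0 in Pbrm1 cKO. Every WT library was therefore well above the floor of 3 counts and every Pbrm1 cKO library below it. The mean of 59.0 ± 2.09 normalized counts in WT was at least 21.7-fold above what 3 counts in each Pbrm1 cKO library would give. Of 2202 microRNA genes in the table, 428 had a count and 23 were tested by DESeq2, of which Mir7688 alone was called, beside 31.1% of all tested genes. The hairpin sequence was found in the transcripts of no other gene of GENCODE release M21. A read needs only to touch the 56 bases to be counted, and neither library kit named in the sources selects small RNA, so the value is not a measure of the mature microRNA. The labels name a total RNA kit with depletion and the methods an mRNA purification, so whether these reads come from polyadenylated or other RNA over the locus cannot be told apart.

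Lta4h, between Mir7688 and Hal, was modestly lower. It encodes leukotriene A4 hydrolase, which makes the leukocyte attractant leukotriene B4. Lta4h (chr10:93453411-93484875, plus strand) stood at 880, 838 and 703 normalized counts in WT, and at 591, 600 and 608 in Pbrm1 cKO. The groups did not overlap, although WT replicate 3 lay nearer to the Pbrm1 cKO libraries than to the other WT libraries. Its mean of 600 ± 8.53 was 74.3% of the WT mean of 807 ± 92.6, a log2 fold change of -0.43 (SE 0.12). This fall is smaller than the 1.5-fold that the study required for a call.

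The other abundant genes of the neighbourhood showed no detectable difference. Elk3, a ternary complex factor that acts with serum response factor, stood at 2114, 1790 and 1668 normalized counts in WT against 2043, 2070 and 1844 in Pbrm1 cKO. Its log2 fold change was 0.10, with a 95% interval of -0.13 to 0.33. Metap2, a methionine aminopeptidase that trims the first residue of new proteins, had 1939, 1719 and 2041 against 1892, 1855 and 1770. Its log2 fold change was -0.05, with an interval of -0.25 to 0.15. For both genes WT libraries lay on both sides of all 3 Pbrm1 cKO libraries. Snrpf, which encodes a protein of the Sm core of spliceosomal particles, had 258, 234 and 385 against 305, 299 and 292, and its log2 fold change was 0.03 with an interval of -0.35 to 0.41. The WT libraries of Snrpf also lay on both sides. Their coefficient of variation was 27.7%, against 12.4% for Elk3 and 8.66% for Metap2, so a moderate change of Snrpf could not be seen here.

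The remaining 3 genes were barely detected. Amdhd1, which encodes imidazolonepropionase, a later enzyme of histidine breakdown, took 0, 0 and 1 reads in WT against 2, 5 and 0 in Pbrm1 cKO. Ccdc38, a coiled-coil gene, had 0, 0 and 5 against 0, 1 and 1. Usp44, a deubiquitinase with a role in the mitotic checkpoint, had 1 read in a single Pbrm1 cKO library. These genes received no adjusted p-value, and no fold is given for them, since counts this low could not show a difference.

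Of the 7 tested genes, Hal was called higher and 3 were called lower (Mir7688, Lta4h and Ntn4), while Elk3, Snrpf and Metap2 were not called. Across the genome 31.1% of tested genes were called in either direction. For 4 of the 7 the ranges of WT and Pbrm1 cKO were apart, against 48.6% of all tested genes. Nothing is read from these shares, since the neighbourhood was picked on this contrast. The median log2 fold change of the 7 was -0.05, also with Mir7688 at its bound, beside -0.00074 over all genes tested.

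The genes called in opposite directions were interleaved and were not 2 separate blocks. From left to right along the chromosome, Elk3 was not called, Mir7688 and Lta4h were lower, Hal was higher, Amdhd1 and Ccdc38 were near 0 reads, Snrpf was not called, Ntn4 was lower and Metap2 was not called. Lta4h ends 3892 bases before Hal begins, on the same strand. Hal and Ntn4 start 151.9 kb apart, also on the same strand. Between them lie Amdhd1 and Ccdc38, which point away from each other with 5′ ends 599 bases apart, and Snrpf, whose 3′ part overlaps Ccdc38 by 1299 bases on the opposite strand. The 5′ end of Snrpf, whose libraries overlapped between groups, is 50.98 kb from that of Ntn4, and the 2 genes point away from each other. The choice of Hal and Ntn4 fixes that both directions occur in this stretch, so that is no result. The nearest abundant genes to the left of Mir7688 and to the right of Ntn4, Elk3 and Metap2, were not called.

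**Figure D2:**
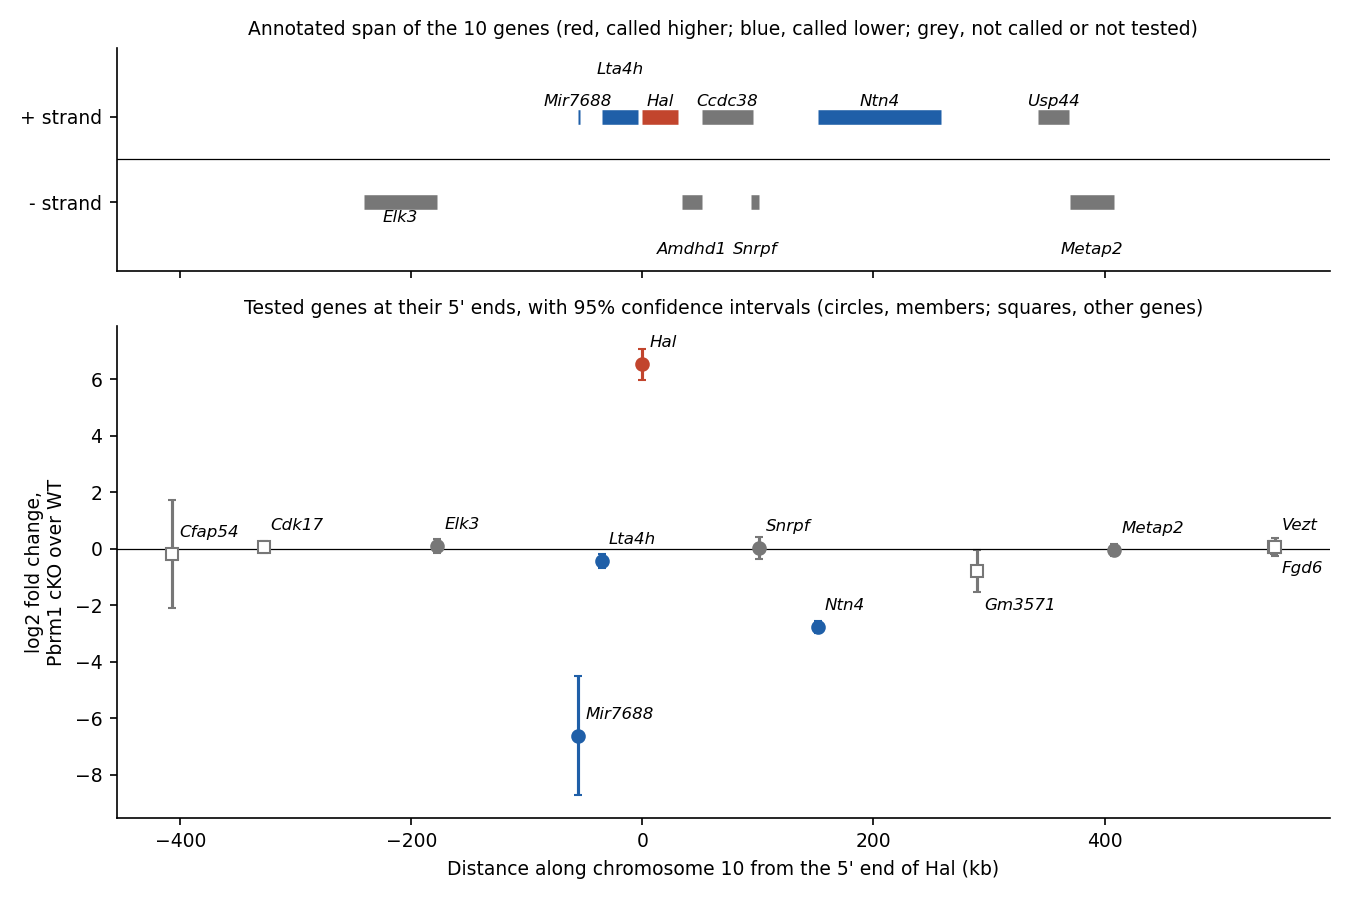
Upper panel, annotated spans of the 10 genes by strand against distance from the 5′ end of Hal (kb), and lower panel, log2 fold change of Pbrm1 cKO over WT with 95% confidence intervals at the 5′ end of each tested gene (circles, the genes described; squares, other genes); Hal at 6.53 is flanked by Lta4h at -0.43 and Snrpf at 0.03, with Mir7688 and Ntn4 (-2.76) further out. The point of Mir7688 is a fitted value that depends on Pbrm1 cKO counts below the floor, and only its bound of at least 21.7-fold lower is measured.

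Of the other 20 genes annotated in the window, 10 had a read and 4 were tested, and none of these was called (DESeq2). The other 6, with at most 5 reads in any library, were Gm32688, Gm17745, 4933408J17Rik, Gm8580, Gm26239 and Gm49628, which received no adjusted p-value. Cdk17, a kinase gene at the left edge, had a log2 fold change of 0.05 (adjusted p = 0.788), and Vezt and Fgd6 at the right edge had 0.05 (adjusted p = 0.811) and 0.05 (adjusted p = 0.872) by the same test. The pseudogene Gm3571, whose counts are uncertain because reads that also map elsewhere are left out, went from 36.9 ± 6.35 to 21.5 ± 3.40 normalized counts (log2 fold change -0.78, DESeq2 adjusted p = 0.112). The nearest tested genes outside the window, Cfap54 and Nr2c1, were not called either. Further to the right, genes called in both directions were again found, and these were picked out after their values were seen. Ndufa12, a respiratory complex I gene that starts 558 kb from the start of Ntn4, went from 401 ± 37.6 to 103 ± 9.05 (log2 fold change -1.96, DESeq2 adjusted p = 2.94e-30). Tmcc3, the next tested gene, went from 475 ± 126 to 1214 ± 20.5 (log2 fold change 1.35, DESeq2 adjusted p = 4.90e-14).

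Neighbours called in opposite directions occurred across the genome, but most adjacent called pairs shared a direction. Of 1843 pairs of adjacent tested genes in which both were called, 726 (39.4%) had opposite directions. With similar numbers of genes called higher and lower, unrelated directions would give about as many opposite pairs as like pairs. Of the 2774 genes called higher, 42.0% had a gene called lower that started within the distance between Hal and Ntn4, and of the 2658 called lower 44.3% had a gene called higher that near. Of 192 genes with a mean of at least 50 normalized counts that were called higher with a log2 fold change of at least 2, 4 (2.08%) had such a gene called lower at -2 or below, among only 109 genes that could be such partners. Those were Hal with Ntn4, Lamb3 with Hsd11b1, Cd68 with Gm25835 and Cx3cr1 with Gm26448, the last 2 partners being annotated as small nucleolar RNAs. Lamb3, a laminin chain, and Hsd11b1, which activates glucocorticoids, start 56.38 kb apart on chromosome 1 with log2 fold changes of 2.57 and -2.86. This is a description of all chromosomes, and Hal and Ntn4 belong to it by the way they were chosen. The shares within the distance between Hal and Ntn4 have no share over all tested genes beside them, so nothing is read from them.

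Levels of different genes were compared per kilobase of exon. In WT the order from the highest was Ntn4 at 680 normalized counts per kb, Elk3 at 408, Snrpf at 339, Metap2 at 248, Lta4h at 132 and Hal at 2.08, with Ccdc38, Amdhd1 and Usp44 under 1. The WT libraries of Elk3 and Snrpf overlapped on that scale, whereas those of the other neighbours in this order down to Hal were apart. In Pbrm1 cKO the order was Elk3 at 436, Snrpf at 347, Metap2 at 240, Hal at 193, Ntn4 at 100 and Lta4h at 98.3. Ntn4 and Lta4h overlapped there, and the other neighbours in the order were apart. Among all protein-coding genes with a count, Hal went from percentile 25.4 of the level per kb in WT to percentile 79.8 in Pbrm1 cKO, and Ntn4 went from percentile 94.3 to percentile 68.0. Mir7688 is left out, since a locus of 56 bases is shorter than the fragments that are counted on it.

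**Figure D3:**
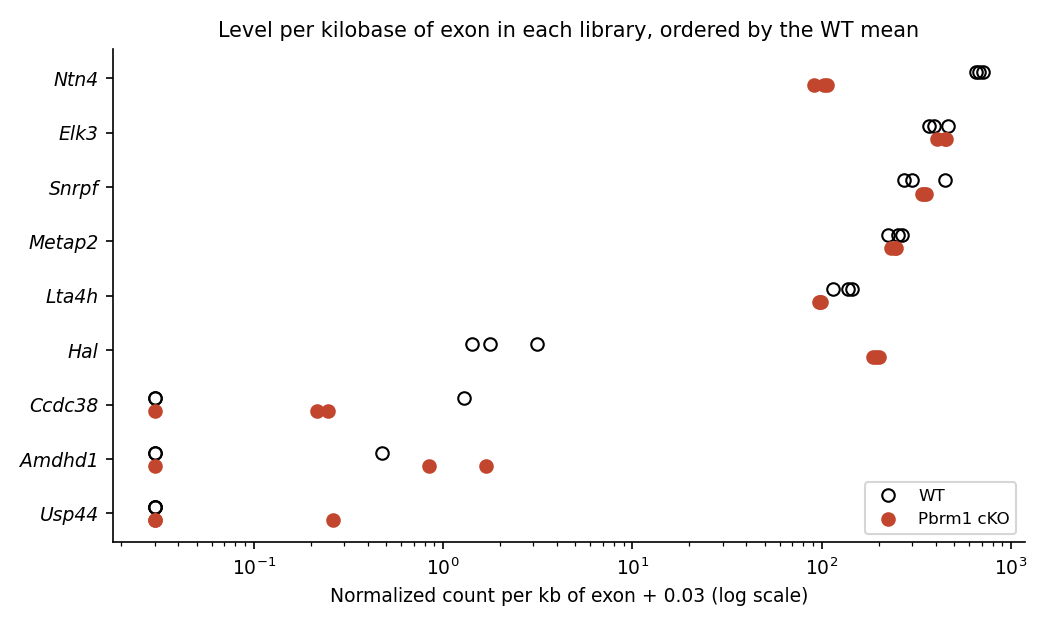
Normalized counts per kilobase of exon plus 0.03 (x axis, log scale) of 9 of the genes in each WT library (open) and each Pbrm1 cKO library (red), ordered by the WT mean. Ntn4 heads the order in WT at a mean of 680 and falls beside Lta4h in Pbrm1 cKO, while Hal moves from a mean of 2.08 to 193; circles at the left edge are libraries with 0 reads.

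Outside the window, the protein-coding genes whose pattern over the 6 libraries was most like that of Hal lay on other chromosomes. Genes of the window were left out of the search beforehand, so no neighbour could be among them. Likeness was the root mean square difference between log2 (normalized count + 1) profiles, each centred on its own mean, over 10391 genes. The nearest to Hal were Ifi44l, an interferon-induced gene (0.30, with 1, 0 and 1 reads in WT, so that the added 1 sets its WT values), Hbb-bs, a beta globin (0.85), and Jchain, the joining chain of secreted antibodies (0.90). For Ntn4 the nearest were Hist1h1a, a linker histone of dividing cells (0.09), Kif1a, an axonal transport motor (0.13), and Exo1, a DNA repair nuclease (0.14). With 2 groups of 3, these profiles are mostly the difference between the groups, and likeness says nothing of shared function.

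The counts of every pathway list here stand beside 31.1% of all tested genes called, and nothing is read as particular to a list. The counts and medians include the members themselves, of which Hal and Ntn4 were chosen on this contrast. Of 4 genes of histidine breakdown, Hal and Uroc1 were tested, Amdhd1 was near 0 reads and Ftcd was at 0 in all 6 libraries. Uroc1, urocanate hydratase, which takes the product of Hal, went from 22.8 ± 1.52 to 28.5 ± 7.93 normalized counts (log2 fold change 0.33, DESeq2 adjusted p = 0.614). Of 8 tested genes of other histidine routes, 2 were called higher and 1 lower, with a median log2 fold change of -0.05. Slc15a3, a lysosomal histidine and peptide transporter, had 1.82 (adjusted p = 5.67e-12), Cndp2, a dipeptidase, had 0.78 (adjusted p = 7.16e-04), and Hars, the histidyl tRNA synthetase, had -0.42 (adjusted p = 6.86e-05), all by DESeq2.

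Among netrins and their receptors, 10 genes were tested, of which 1 was called higher and 2 lower, beside 31.1% of all tested genes. Ntn4, chosen on this contrast, is 1 of the 2. The median log2 fold change was -0.44. Ntn4 was the most abundant netrin in WT, at 680 normalized counts per kb. Ntn1 went from 218 ± 23.1 to 187 ± 24.0 normalized counts and was not called (DESeq2 adjusted p = 0.387). Ntng2, a membrane-bound netrin-G, had a log2 fold change of -1.25 (DESeq2 adjusted p = 0.0165), and the receptor gene Unc5b had 0.42 (DESeq2 adjusted p = 1.15e-04). The receptor gene Dcc was at 0 in all libraries, and Neo1, the neogenin receptor, was not called. Of 15 genes of laminins and their basement membrane partners, with which netrin-4 associates, 5 were called higher and 3 lower, with a median log2 fold change of 0.07. The largest were Lamb3 at 2.57 (adjusted p = 1.60e-17), Lamc3 at -2.32 (adjusted p = 3.84e-07) and Nid2, which encodes nidogen 2, at -2.12 (adjusted p = 1.95e-60), by DESeq2. Lamc1, the most widely used laminin gamma chain and a partner of netrin-4, went from 5039 ± 335 to 4545 ± 235 and was not called (DESeq2 adjusted p = 0.234).

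Of 8 tested genes of leukotriene synthesis and reception, 3 were called higher and Lta4h alone was called lower, with a median log2 fold change of 1.04. The higher genes were Cysltr1, a receptor for cysteinyl leukotrienes, at 1.95 (adjusted p = 4.04e-07), Alox5ap, which presents arachidonate to 5-lipoxygenase, at 1.63 (adjusted p = 2.52e-08) and Dpep1, a dipeptidase, at 1.07 (adjusted p = 1.85e-04), by DESeq2. Alox5ap and Cysltr1 are also used by leukocytes. Of 6 genes around Elk3 (serum response factor, its ternary complex factors and cofactors), 1 was called higher, Elk4 at 0.32 (DESeq2 adjusted p = 0.0256). Of 8 Sm core genes, Snrpg at -0.43 (adjusted p = 0.00424) and Snrpb at -0.26 (adjusted p = 0.0047) were called lower by DESeq2. None of 5 tested genes of methionine removal and myristoylation, the group of Metap2, and none of 5 tested H2B deubiquitinases, the group of Usp44, was called.

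**Figure D4:**
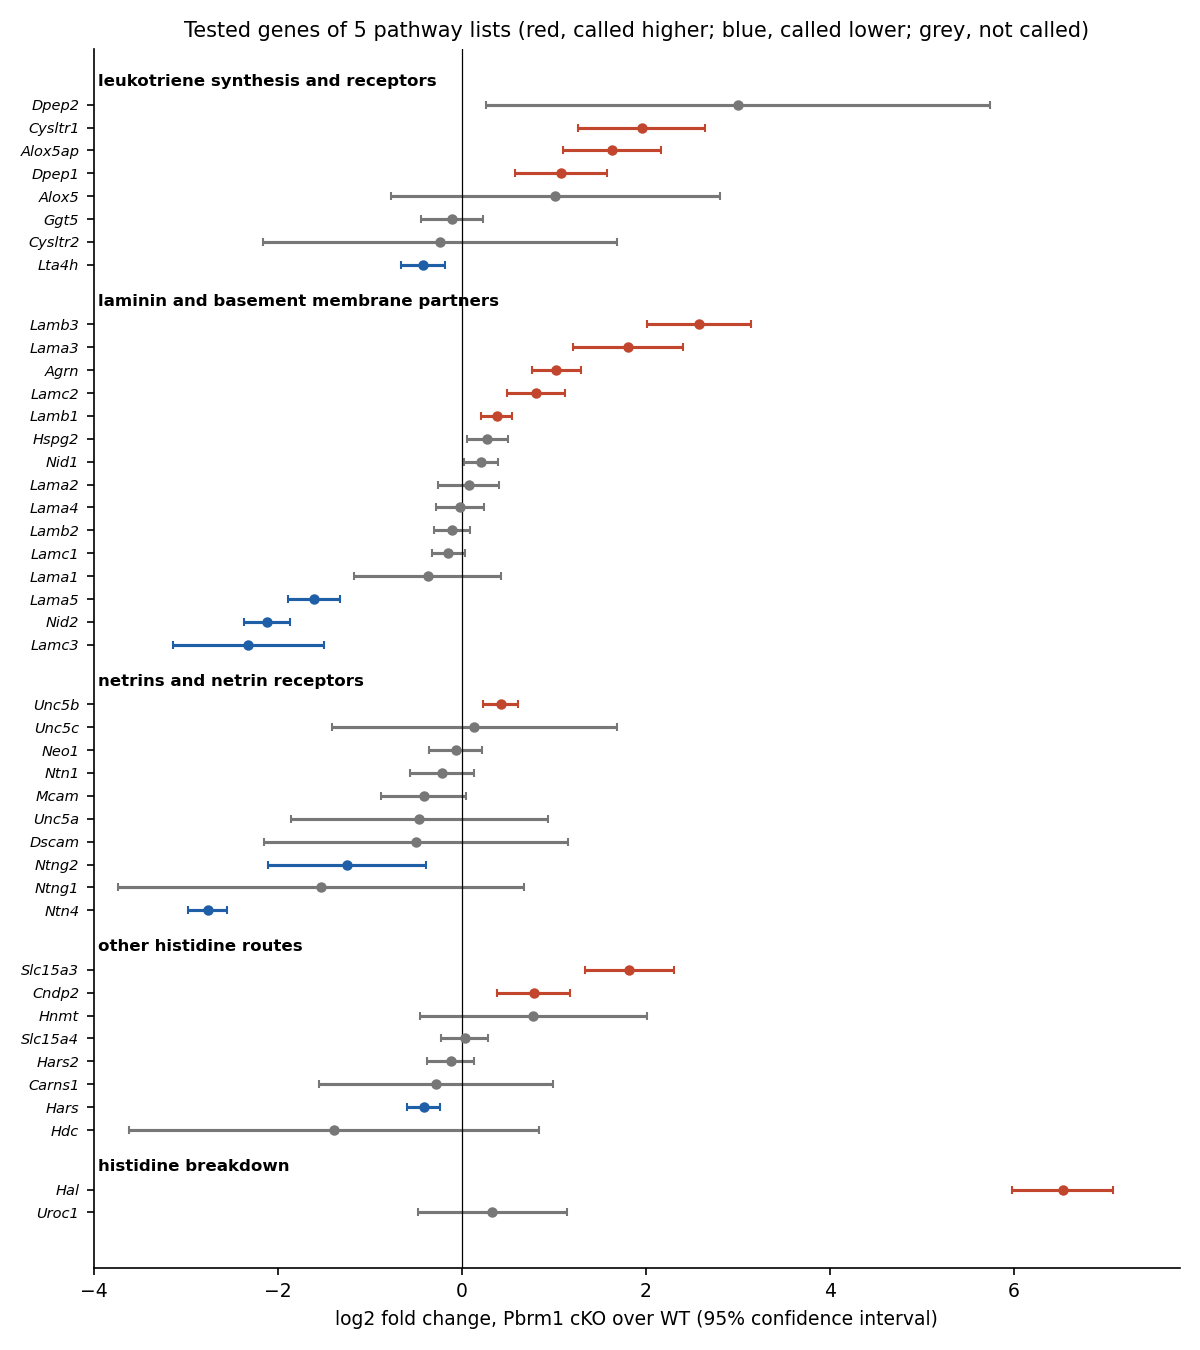
Log2 fold change of Pbrm1 cKO over WT (x axis) with 95% confidence intervals for the tested genes of 5 pathway lists, with red for called higher, blue for called lower and grey for not called. Hal at 6.53 stands alone beside Uroc1 at 0.33, Ntn4 at -2.76 is the lowest of its list, and Lta4h at -0.43 is the lowest of a list whose median is 1.04.

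Marker genes of other cell types were examined in the same comparison, in which 15.9% of all tested genes were called higher and 15.2% lower. In bulk cells, fewer cells of a type and less RNA per cell cannot be told apart. The summed normalized count of 22 leukocyte markers ranged from 5214 to 11509 in WT and from 50176 to 51672 in Pbrm1 cKO, and 18 of the 19 tested were called higher. That of 6 erythroid markers ranged from 2.14 to 8.65 against 136 to 260, with 4 of 4 tested called higher. Of 15 tested epithelial markers 4 were called higher, beside 15.9% of all tested genes, and none lower, with sums of 1965 to 3576 against 3699 to 3862. The 14 stromal markers summed to 113138 to 130931 in WT and 87624 to 94160 in Pbrm1 cKO, with 7 called lower and 1 higher. Smooth muscle and pericyte markers (4 of 12 lower, 1 higher) summed to 59031 to 62623 against 57449 to 59471. No marker of these lists was at 0 in all libraries. The part of these cells in the values of Hal, Ntn4, Mir7688 and Lta4h was not tested.

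Endothelial markers, 3 of 12 called lower and 1 higher (close to the 31.1% of all genes), separated the WT libraries from each other. They summed to 3383 in WT replicate 1, 6944 in WT replicate 2 and 6981 in WT replicate 3, and to 3043 to 3616 in Pbrm1 cKO. WT replicate 1 also had the lowest leukocyte sum, 5214 against 11509 and 10947 in the other WT libraries, the lowest epithelial sum, 1965 against 3576 and 3384, and the highest stromal sum, 130931 against 113138 and 113184. It had the lowest WT value of Ntn4, 2439 normalized counts, and of Mir7688, 56.6 against 59.9 and 60.5, and the highest of Lta4h, 880 against 838 and 703. Its 9.62 normalized counts of Hal lay between those of the other WT libraries, all of which rest on 16 reads or fewer. These are values of 1 library, and the part of any of these cell types was not tested.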

How the data were processed

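The authors trimmed reads with cutadapt, aligned them to GRCm38/mm10 with HISAT2 and counted them with featureCounts 1.6.4 against GENCODE release M18, per strand. The deposited table holds raw counts per gene and library, with no normalization, and no column was left unused. Reads that map to several places or to several genes on a strand are not counted by default. The labels describe a total RNA kit with depletion and random priming, and the methods describe mRNA purification. Symbols and biotypes came from GENCODE release M21, for 54079 of 54232 genes, and sequences from RefSeq. All 6 libraries were fitted in DESeq2 1.42.0 (R 4.3.3) with its default size factors, filtering and Wald test, no covariate and Benjamini-Hochberg adjustment over all genes at 0.05. The fit was tested on simulated data. Alternatives used edgeR 4.0.16 and limma 3.58.1. The members and gene lists were chosen with earlier results of these data known. Text names all members, other detected genes of the window, the nearest tested gene on each side, up to 3 called genes of a list, those a result turns on, and the 3 genes most like Hal and Ntn4. P-values measure only the spread between these libraries.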

Additional observations from a re-analysis of the deposited data

How the results depend on the processing

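Under 14 alternatives (other normalization, tests and filters, removal of a length trend, a replicate block, the study's call rule and leaving out each library), Hal remained called higher and Ntn4 and Mir7688 called lower. Log2 fold changes were 6.31 to 6.93 for Hal and -2.81 to -2.70 for Ntn4. Those of Mir7688, -7.09 to -5.90, are fitted values and no measured fold, since its Pbrm1 cKO counts lie below the floor. Under the study's call rule (over 1.5-fold, p under 0.01, adjusted p under 0.1), Lta4h at -0.43 was not called, and over all genes 1665 were called higher and 1452 lower, against 2774 and 2658. The rule changes 3 thresholds at once, and their separate parts in this drop were not tested. The study itself reported fewer genes in each direction at these thresholds, and the reason was not tested. The share of adjacent called pairs with opposite directions was 31.6% under the rule as applied here, against 39.4%, and 40.4% with edgeR. The cause was not tested. With the replicate block, 2175 genes were called higher and 1828 lower, with Hal at 6.54 and Ntn4 at -2.77. WT and Pbrm1 cKO libraries of the same number correlated at 0.114, -0.0515 and 0.0028, so the numbers did not pair them. Leaving out 1 library gave 1923 to 2915 genes called higher and 1790 to 2660 lower. The fitted sign of Snrpf changed without WT replicate 1 or 2 (to as low as -0.11) and that of Metap2 without WT replicate 3 (to 0.0041), with neither called. For Amdhd1, Ccdc38 and Usp44 the depth limits any statement. No scaling shifted the median over all genes by more than 0.1 (log2).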
